A study of Mus musculus with 4 samples.

Results

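Interleukins, tumour necrosis factor (TNF) superfamily ligands and their receptors were compared across 4 sorted pancreatic islet cell populations. The genes were chosen by symbol: rows named as an interleukin, an interleukin receptor, Tnf, a Tnfsf or Tnfrsf gene, or one of the lymphotoxin genes Ltb and Ltbr, with at least 1 FPKM (fragments per kilobase of transcript, a level corrected for gene length) in at least 1 library. Of 118 rows with such a symbol, 65 passed, out of 17832 rows at this level in a table of 39170. The 65 rows are 64 genes, since Tnfrsf22 has 2 rows, and comprise 20 ligands, 38 receptors or receptor subunits, 6 antagonists or decoys and the enzyme Il4i1.

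The cells came from male C57BL/6 mice aged 6 to 8 weeks that carry MIP-GFP, a green fluorescent reporter under the mouse insulin promoter. Cells positive for insulin were sorted into a gate labelled high and a gate labelled low for the glucose transporter Glut2, called Glut2H and Glut2L here. Mice received streptozotocin (STZ), a toxin that enters beta cells through Glut2, injected intraperitoneally at 200 mg/kg in citrate buffer, with diabetes 4 days later, or vehicle as the control. There was 1 library for each of the 4 combinations of gate and treatment, from 3 mice per group. The sources used here do not say whether RNA of the 3 mice was pooled. No replicate spread could therefore be measured, no test was run, and each difference below compares 2 libraries.

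The labels of the gates go against Slc2a2, the gene of Glut2. It was at 8.74 FPKM (Glut2H) and 41.0 FPKM (Glut2L) in control mice and at 10.8 FPKM (Glut2H) and 33.7 FPKM (Glut2L) in STZ mice, so it was higher in both libraries labelled Glut2L. All sets of 4 values below follow this order. The insulin genes stood the same way: Ins2 was at 57345, 294540.0, 52596 and 175841 FPKM and Ins1 at 8955, 30842, 8471 and 20766 FPKM. The names Glut2H and Glut2L are kept as labels of libraries. The libraries also differed in what filled them, since the row Gm20594 held 61.0% and 68.5% of the summed FPKM in the Glut2H control and STZ libraries, and Rn7sk held 21.1% and 21.4% in the Glut2L ones. Read depth is unknown.

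Markers of cells other than beta cells moved with the gates. The 11 macrophage markers in the table summed to 1173, 65.7, 1252 and 77.2 FPKM, with none at 0 in any library, and 9 and 10 of the 10 tested were at least 2-fold lower in Glut2L in control and in STZ mice. All 8 endothelial markers (265, 33.8, 244 and 14.7 FPKM in sum) and all 8 stromal markers (220, 7.65, 194 and 5.87 FPKM in sum) were at least 2-fold lower in Glut2L in both, with Tie1 at 0 in the Glut2L STZ library alone. The 10 beta cell markers summed to 71001, 337679, 67073 and 209083 FPKM. The lymphoid lists were low. The 8 T cell markers summed to 13.3, 4.76, 7.62 and 3.10 FPKM, with Cd28 at 0 throughout and Cd3e at 0 in both Glut2L libraries. Cd4 made up 9.68 and 6.22 FPKM of the sums in the Glut2H control and STZ libraries. Of the 3 tested, 2 were lower and 1 higher in Glut2L in control mice, and 1 and 1 in STZ mice. As differences of log2(FPKM + 1), Cd4 was lower in both (-2.71 and -2.74) and Lck higher in both (1.37 and 1.52). The 7 natural killer and innate lymphoid markers summed to 15.2, 15.0, 16.4 and 13.3 FPKM, with Klrb1c, Nkg7 and Gzma at 0 throughout. That sum joins genes that went different ways: Gata3 was at 6.88, 0.785, 1.02 and 0 FPKM and Areg at 3.45, 0.944, 0.185 and 0.655 FPKM, while Rora was at 4.90, 13.2, 15.2 and 12.7 FPKM. Acinar markers (3219, 2615, 3550 and 307 FPKM in sum) were low in the Glut2L STZ library, where all 7 were at least 2-fold lower than in Glut2H, and the 5 duct markers summed to 38.9, 100.4, 32.5 and 94.9 FPKM and the 7 alpha cell markers to 2339.9, 4236, 4407 and 10006 FPKM. Of all markers the lowest gate differences, as log2(FPKM + 1), were those of C1qc (-5.59) and Dcn (-5.44) in control and of Clps (-6.46) and C1qb (-5.71) in STZ mice, and the highest those of Krt7 (2.42) and Ins2 (2.36) and of Ttr (3.15) and Slc30a8 (2.06). The 6 dendritic cell markers summed to 28.8, 21.0, 26.7 and 11.6 FPKM, and these genes also went different ways. In Glut2L 2 were at least 2-fold higher and 1 lower in control mice, and 1 and 1 in STZ mice. Itgax was lower in both (-3.80 and -3.47). The higher ones were Ccr7 (1.10) and Cd209a (1.01) in control and Zbtb46 (1.06) in STZ mice. Of the 4 B cell markers, 3 were at least 2-fold lower in Glut2L in control mice and 1, Pax5, in STZ mice, with 0 higher in either. Their medians were -1.62 and 0.20, and their sums are given beside the STZ comparison. The neutrophil genes S100a8, S100a9 and Ly6g and the mast cell genes Cpa3, Mcpt4 and Ms4a2 were at 0 in every library. The other neutrophil markers were Mmp9 at 6.89, 0, 0.210 and 0.311 FPKM and Csf3r at 3.17, 0.698, 4.38 and 0.302 FPKM. The other mast cell and basophil markers were Kit at 2.91, 0.644, 2.35 and 0.687 FPKM and Fcer1a at 0, 0.376, 0 and 0 FPKM. The part of these cells in the differences below was not tested, and in bulk RNA fewer cells of a type and less RNA per cell cannot be told apart.

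Interleukins and TNF family ligands are secreted or membrane-bound messengers of immune and stromal cells, and most act at very low concentration on cells that carry the matching receptor. Receptors of interleukin-1 and TNF signal through adaptor proteins to NF-kB and MAP kinases, or for some TNF receptors to cell death, whereas most other interleukin receptors share a signalling chain such as gp130 or the common gamma chain and act through JAK kinases and STAT factors. In islets, interleukin-1 and TNF are known as cytokines to which beta cells respond, and beta cells carry the interleukin-1 receptor. Natural antagonists such as the interleukin-1 receptor antagonist, and decoy receptors without a working signalling domain, limit the response.

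Promoter sequences are shown for the ligands Il6, Il1a, Il1b and Tnf and for the antagonist Il1rn, 5 inflammatory genes with large differences between the gates. Each is the 250 bases before a RefSeq transcript start on GRCm38.p6, 5′ to 3′ on the strand of the gene, with position -1 as the last base. Capitals mark matches, searched on both strands and not overlapping one another here, to TATAAA, a core promoter box, to TGANTCA, a site of the AP-1 type, or to GGANTTTCC, a site of the NF-kB type.
Il6 (chr5:30012864-30013113, plus strand): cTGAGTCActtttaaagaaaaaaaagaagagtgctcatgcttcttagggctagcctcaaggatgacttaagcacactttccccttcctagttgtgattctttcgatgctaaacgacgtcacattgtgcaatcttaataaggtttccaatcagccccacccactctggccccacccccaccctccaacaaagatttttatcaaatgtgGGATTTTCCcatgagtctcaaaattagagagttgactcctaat
Il1a (chr2:129309973-129310222, minus strand): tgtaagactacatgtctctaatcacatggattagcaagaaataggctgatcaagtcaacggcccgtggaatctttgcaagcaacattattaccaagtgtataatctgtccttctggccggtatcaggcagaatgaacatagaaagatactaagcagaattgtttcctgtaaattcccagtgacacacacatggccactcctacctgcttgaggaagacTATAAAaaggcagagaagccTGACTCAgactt
Il1b (chr2:129371140-129371389, minus strand): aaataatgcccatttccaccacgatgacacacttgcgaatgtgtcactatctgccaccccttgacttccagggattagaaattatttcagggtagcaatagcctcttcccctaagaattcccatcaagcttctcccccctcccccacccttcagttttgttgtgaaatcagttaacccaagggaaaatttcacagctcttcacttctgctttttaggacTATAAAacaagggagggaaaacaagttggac
Tnf (chr17:35202008-35202257, minus strand): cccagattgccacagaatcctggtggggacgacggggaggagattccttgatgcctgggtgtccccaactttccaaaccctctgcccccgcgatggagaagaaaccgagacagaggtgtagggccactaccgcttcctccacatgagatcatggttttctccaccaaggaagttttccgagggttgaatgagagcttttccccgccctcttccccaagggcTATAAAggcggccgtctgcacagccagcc
Il1rn, most upstream start (chr2:24336610-24336859, plus strand): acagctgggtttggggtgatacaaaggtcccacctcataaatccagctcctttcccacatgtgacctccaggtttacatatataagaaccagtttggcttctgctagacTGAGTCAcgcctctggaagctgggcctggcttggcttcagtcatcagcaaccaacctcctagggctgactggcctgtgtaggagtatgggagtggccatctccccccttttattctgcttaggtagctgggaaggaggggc

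Il1a, Il1b and Tnf held TATAAA just ahead of the start, at -32 to -27, -31 to -26 and -29 to -24. Il6 held GGATTTTCC at -43 to -35 and TGAGTCA at -249 to -243, and Il1a held TGACTCA at -12 to -6. Il1rn held TGAGTCA at -141 to -135 in the entry shown. Its other entries (chr2:24345041-24345290 and chr2:24345121-24345370) held no match to any of these motifs. Promoter entries were found for 50 of the 64 genes, 64 entries in all, against 32851 entries in the whole reference. TATAAA was in 30.0% of the 20 ligand entries (6 entries of 5 genes), 2.63% of the 38 receptor entries and 12.4% of all entries. TGANTCA was in 25.0%, 5.26% and 6.75% of these, and GGANTTTCC in 15.0%, 2.63% and 1.07%. These matches describe the letters only and are no sign of binding.

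Between the gates, the ligands Il1a, Il1b, Il33, Il6, Il11, Tnf and Il15, the antagonist Il1rn and the receptors Il7r, Il2rg, Il10ra, Il21r, Il4ra and Tnfrsf1b were at least 2-fold lower in the Glut2L libraries of both control and STZ mice. The interleukin-1 receptor Il1r1 and the enzyme Il4i1 were at least 2-fold higher in both. Differences are given as Glut2L minus Glut2H of log2(FPKM + 1), and a gene is called at 1 or more on this scale, a 2-fold difference. This scale understates the change of low genes. In control mice 33 of the 65 rows were called lower and 4 higher, against 16.9% and 18.1% of the 17732 rows tested. After STZ 27 were called lower and 7 higher, against 15.9% and 20.5%. The medians of the 65 were -1.03 and -0.59 in control and STZ mice, where those of all rows were 0.10 and 0.16. The 2 gate comparisons share no library. In both, 19 rows were lower, which is 19 of the 33 and 19 of the 27, while 8.39% of all rows were. Among these 19 rows, Il1a, Il33, Il10ra, Il11ra1, Ltb, Tnf, Tnfrsf26, Il15 and Il21r were under 1 FPKM in both Glut2L libraries. They passed the 1 FPKM minimum through Glut2H libraries alone and had to lean that way, so their agreement is no independent repeat. Of these 19, Tnfsf12 in control mice and Il10rb, Il6, Tnfrsf26 and Il15 in STZ mice fell short of 2-fold when libraries were scaled to an equal sum. The 2 rows higher in both compare with 6.59% of all rows.

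By role, 13 of 20 ligands were called lower in Glut2L in control mice and 12 in STZ mice, with medians of -1.41 and -1.21. For the 38 receptors the counts were 19 and 13, with medians of -0.99 and -0.38, the last turning to 0.33 when libraries were scaled to an equal sum. Of the 6 antagonists and decoys 1 and 2 were called lower, with medians of -0.01 and 0.13. A row that passed the 1 FPKM minimum in 1 gate only had to lean towards that gate: 19 rows, 10 ligands and 9 receptors, were under 1 FPKM in both Glut2L libraries and passed through a Glut2H library alone, while 0 rows were under 1 FPKM in both Glut2H libraries. Without that minimum the same counts stood over 99 rows with a value, since no row below 1 FPKM can differ 2-fold on this scale. Scaling to an equal sum moved the median of all rows from 0.10 to 0.76 in control and from 0.16 to 1.06 in STZ mice, and the higher share of all calls from 51.6% to 78.1% and from 56.4% to 85.2%. Under it 27 and 16 of the 65 rows were still called lower, and no called row of the families changed direction. It gained 6 and 10 calls and lost 6 and 11, and turned the sign of 9 and 11 rows, which were not called on the deposited scale. The equal sums take in all rows, Gm20594 and Rn7sk among them. With the 20 highest rows and mitochondrial genes left out of the sums, the medians of all rows were 0.07 and 0.05. In that setting 33 and 29 of the 65 rows were called lower and 4 and 5 higher.

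Levels in the Glut2L libraries, where the insulin genes were highest, separated the roles in another way. No ligand reached 5 FPKM in both Glut2L libraries, and 10 of 20 were under 1 FPKM in both and so had to be higher in a Glut2H library. In both Glut2H libraries 7 ligands reached 5 FPKM. Of the receptors, 11 of 38 reached 5 FPKM in both Glut2L libraries, namely Tnfrsf1a, Il6st, Il1r1, Tnfrsf12a, Ltbr, Il15ra, Tnfrsf14, Il17rc, Il13ra1, Tnfrsf21 and Tnfrsf9, and 9 were under 1 FPKM in both. Of the 6 antagonist or decoy rows 5 reached 5 FPKM in both Glut2L libraries: Il1rn, Il18bp, Tnfrsf11b, Tnfrsf23 and 1 row of Tnfrsf22. Over all 17832 rows, 8088 reached 5 FPKM in both Glut2L libraries and 2153 were under 1 FPKM in both. The summed level was 217, 29.5, 146 and 23.4 FPKM for ligands, 948, 469, 897 and 550.4 FPKM for receptors and 473, 98.3, 434 and 90.1 FPKM for antagonists and decoys.

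**Figure D1:**
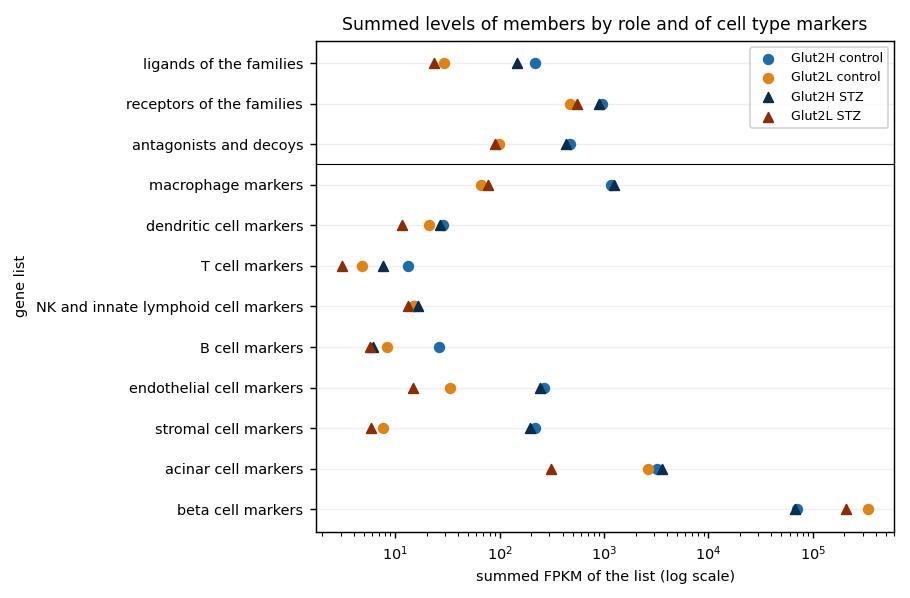
Summed FPKM (x axis, log scale) of the ligands, receptors and antagonists or decoys of the families and of lists of cell type markers (y axis), 1 point per library with circles for control and triangles for STZ mice. Ligands sum to 217 and 146 FPKM in the Glut2H libraries and to 29.5 and 23.4 FPKM in the Glut2L ones, macrophage markers to 1173 and 1252 against 65.7 and 77.2, while beta cell markers are higher in the Glut2L libraries.

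**Figure D2:**
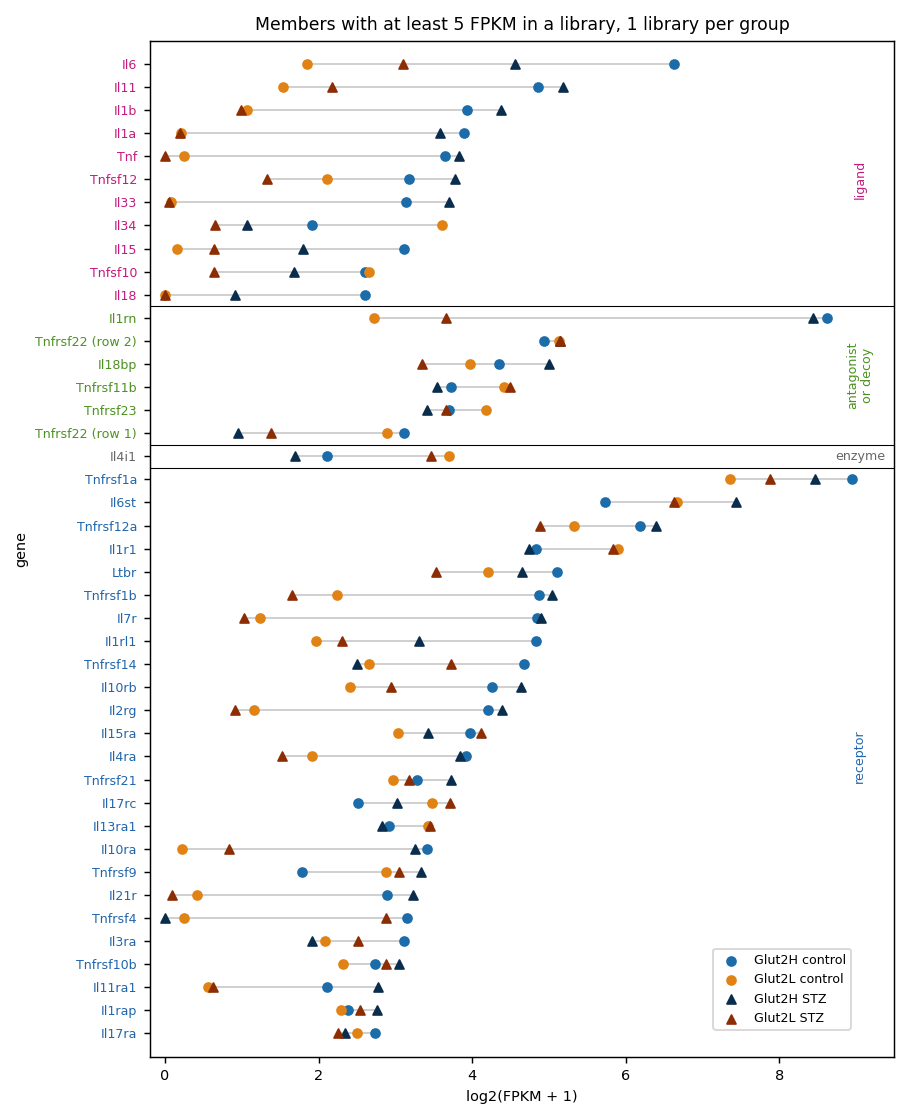
Level as log2(FPKM + 1) (x axis) of the 43 rows with at least 5 FPKM in a library (y axis), grouped by role, with 1 point per library (blue, Glut2H; orange and brown, Glut2L; circles, control; triangles, STZ) and a line over their range. Row 2 of Tnfrsf22 is the one without a GENCODE identifier. The Glut2H points of Il1a, Il1b, Il33, Il11, Il6 and Tnf lie to the right of both Glut2L points, and those of Il1r1 and Il4i1 to the left.

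Among the ligands of the interleukin-1 family, Il1a and Il1b encode the 2 agonists of the interleukin-1 receptor and lie as neighbours on chromosome 2 (chr2:129299610-129309972 and chr2:129364570-129371139, GRCm38). Il1a was at 13.8, 0.154, 11.0 and 0.149 FPKM and differed by -3.68 and -3.38 between the gates in control and STZ mice. Il1b was at 14.2, 1.10, 19.8 and 0.991 FPKM, with gate differences of -2.86 and -3.39. Both Glut2H libraries were above both Glut2L libraries for each gene, and the deposited intervals of Il1a and Il1b did not overlap between the gates in either pair. Il33, a nuclear alarmin, was at 7.81, 0.0579, 12.0 and 0.0374 FPKM (-3.06 and -3.65), again with both Glut2H libraries on top. Il18, a ligand released after cleavage by caspase-1, was at 5.08, 0, 0.878 and 0 FPKM and was listed at 0 in both Glut2L libraries. Its interval reached 0 in every library.

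Il1rn, the secreted interleukin-1 receptor antagonist (chr2:24336853-24351494), showed the largest gate difference of the 65 rows in both pairs on the log2(FPKM + 1) scale. By plain ratio of FPKM, rows near 0 in Glut2L such as Il33 and Il1a exceeded it in both pairs. It was at 392, 5.62, 348 and 11.6 FPKM, a difference of -5.89 in control and -4.79 in STZ mice. Its intervals ran from 106 to 678, 0.271 to 16.5, 30.0 to 744 and 1.05 to 27.9 FPKM, and those of the Glut2H libraries lay above those of the Glut2L libraries. Il1rn exceeded Il1b in every library, by ratios of 27.5, 5.12, 17.5 and 11.7 in FPKM. Il18bp, a secreted binding protein that neutralises interleukin-18, was at 19.5, 14.6, 31.0 and 9.18 FPKM, with differences of -0.39 and -1.65. Unlike Il18 it was present at 9.18 FPKM or more in all 4 libraries, and the call in STZ mice ended (-0.59) under equal sums.

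The receptors of this family split by gene although 3 of them lie side by side on chromosome 1. Il1r1, the signalling receptor of interleukin-1 (chr1:40225080-40317257), was at 27.6, 58.5, 25.9 and 55.8 FPKM. Both Glut2L libraries were above both Glut2H libraries, by 1.06 and 1.08. The intervals overlapped, and both differences were just under 2-fold (0.96 and 0.92) when the median of all rows was set to 0. Il1rl1, the receptor of interleukin-33 (chr1:40429570-40465415), was at 27.4, 2.91, 8.91 and 3.96 FPKM, highest in the Glut2H control library, with gate differences of -2.86 and -0.998, the latter just short of the 2-fold line. Between these genes lies Il1rl2, the interleukin-36 receptor, at 4.53, 0.548, 1.64 and 0.368 FPKM. Il1rap, the accessory chain that these receptors share, was at 4.23, 3.91, 5.80 and 4.81 FPKM with gate differences of -0.09 and -0.23.

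Il6 and Il11, which signal through gp130, were the 2 ligands with the highest single values. Il6 (chr5:30013114-30019981) was at 97.9, 2.59, 22.5 and 7.58 FPKM, with gate differences of -4.78 in control and -1.46 in STZ mice. The Glut2H control library was highest by far, and after STZ the gap between the gates was narrower and was no longer 2-fold under equal sums (-0.41). Il11 (chr7:4772373-4782859) was at 27.9, 1.90, 35.4 and 3.50 FPKM, a difference of -3.32 and -3.02, with intervals apart in both pairs. Il27, a ligand related to interleukin-12, was at 1.06, 0, 0 and 1.61 FPKM, and Il12a was at 0 in all libraries.

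Of the receptor chains for these ligands, Il11ra1 was lower in Glut2L in both pairs, as were Il6 and Il11, whereas Il6st and Il6ra were not called in either. Il6st, which encodes gp130 (chr13:112464070-112510086), was at 52.1, 100.3, 173 and 97.8 FPKM, the highest interleukin receptor row in every library. It was lowest in the Glut2H control and highest in the Glut2H STZ library, with the Glut2L libraries between and near each other. Its gate differences were 0.93 and -0.81, which under equal sums became 1.75, past 2-fold, and 0.31, with the sign turned. Its intervals were wide, 5.97 to 658 FPKM in the Glut2H STZ library. Il6ra, the specific chain for interleukin-6, was low at 3.38, 2.16, 3.08 and 1.94 FPKM, so gp130 exceeded it by 15.4, 46.3, 56.0 and 50.5 in FPKM. Il11ra1, the specific chain for interleukin-11, was at 3.31, 0.478, 5.83 and 0.545 FPKM (-1.54 and -2.14). It overlaps several other genes, including Galt on the same strand, so its value is uncertain.

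**Figure D3:**
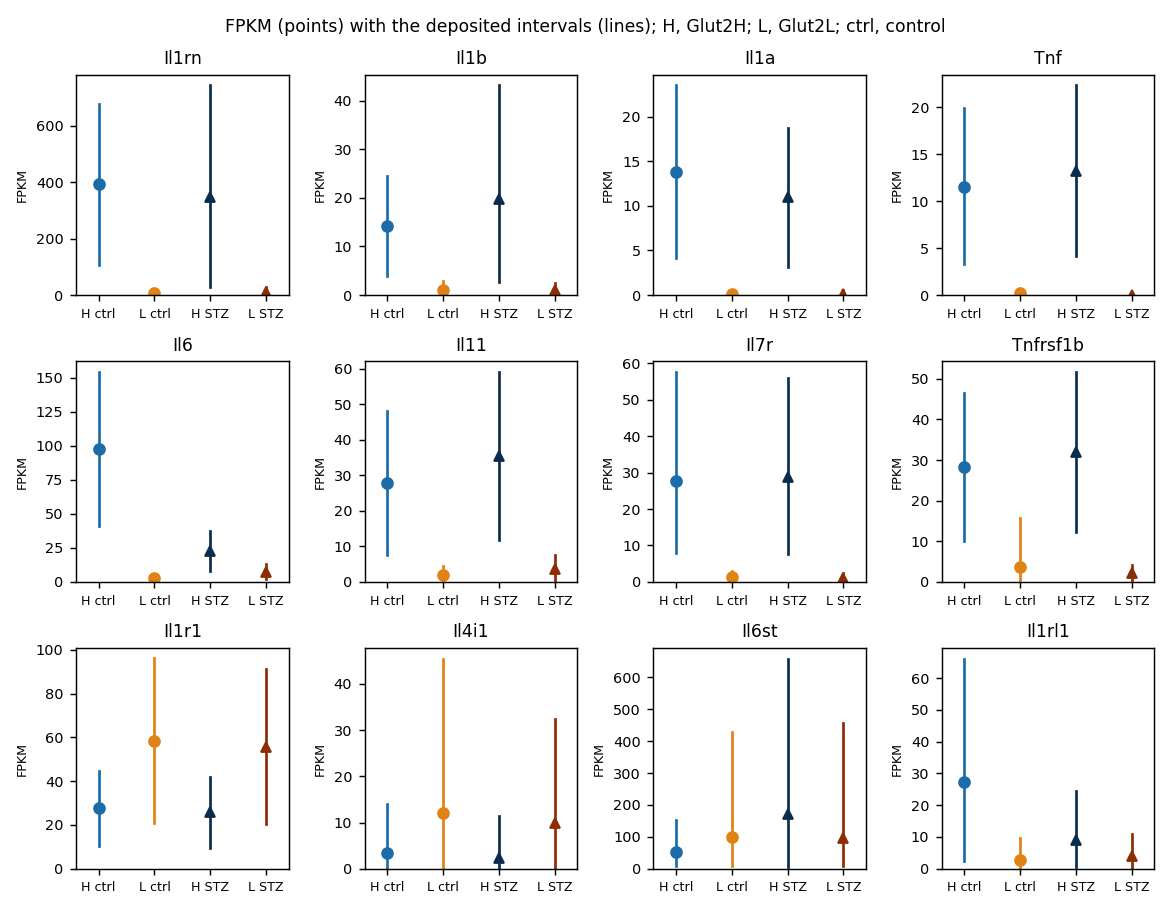
FPKM (y axis, linear, a scale per gene) of named genes in the 4 libraries (x axis: H, Glut2H; L, Glut2L; ctrl, control), with points for the deposited FPKM and lines for the deposited interval, whose level is not stated. Il1rn, Il1b, Il1a, Tnf and Il11 are high in both Glut2H libraries, Il6 is highest in the Glut2H control library, and the intervals of Il1r1, Il4i1 and Il6st overlap between the gates.

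Of the 8 receptor rows of the common gamma chain and interleukin-13 group, Il2rg, Il7r, Il21r and Il4ra were at least 2-fold lower in Glut2L in both pairs. Il2rg, the common gamma chain itself, was at 17.5, 1.23, 19.95 and 0.872 FPKM (-3.05 and -3.48). Il7r, the receptor of interleukin-7 and a partner in the receptor of thymic stromal lymphopoietin, was at 27.6, 1.35, 28.8 and 1.03 FPKM (-3.61 and -3.87). Both genes were high in both Glut2H libraries, with intervals apart in both pairs. Il21r and Il4ra, the receptors of interleukin-21 and interleukin-4, are neighbours on chromosome 7 (chr7:125603429-125633570 and chr7:125552120-125579474). Il21r was at 6.41, 0.333, 8.36 and 0.0678 FPKM (-2.48 and -3.13). Il4ra was at 14.2, 2.77, 13.4 and 1.87 FPKM (-2.01 and -2.32), so the Glut2H libraries were higher for both neighbours. Il15, the gamma chain ligand with a value above 5 FPKM, was at 7.65, 0.117, 2.47 and 0.560 FPKM (-2.95 and -1.15, the latter under 2-fold with equal sums). Its own receptor chain Il15ra was at 14.8, 7.17, 9.78 and 16.4 FPKM, with no 2-fold gate difference on the deposited scale (-0.95 and 0.69). It was lower in Glut2L in control mice (-1.05) with the median of all rows set to 0, and higher in STZ mice (1.74) under equal sums. Il13ra1, which pairs with Il4ra to bind interleukin-13, was at 6.53, 9.73, 6.11 and 9.90 FPKM (0.51 and 0.62, or 1.25 and 1.62, both past 2-fold, under equal sums).

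Of the interleukin-10 receptor chains, Il10ra, the ligand-binding chain, was at 9.65, 0.165, 8.58 and 0.775 FPKM (-3.19 and -2.43), with intervals apart in both pairs. Il10rb, a chain shared with the receptors of interleukin-22 and the lambda interferons, was at 18.2, 4.31, 23.9 and 6.66 FPKM (-1.85 and -1.70, the latter -0.66 under equal sums), and overlaps Gm21970 on its strand. Il10 itself reached 3.33 FPKM in the Glut2H control library and was at 0.781, 0.560 and 0 in the others. Receptors of interleukin-17 showed no 2-fold gate difference on the deposited scale: Il17ra was at 5.66, 4.67, 4.08 and 3.77 FPKM (-0.23 and -0.09). Its partner Il17rc was at 4.70, 10.1, 7.12 and 12.1 FPKM (0.96 and 0.69, both above 2-fold at 1.69 and 1.71 under equal sums). Il3ra, the interleukin-3 receptor chain, was at 7.67, 3.24, 2.77 and 4.71 FPKM, highest in the Glut2H control library (-1.03 and 0.60, or -0.35 and 1.49 under equal sums).

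In the TNF superfamily, Tnf (chr17:35199381-35202007) was at 11.5, 0.191, 13.2 and 0 FPKM, high in both Glut2H libraries and at or near 0 in both Glut2L libraries (-3.39 and -3.83). Its neighbour Ltb, the beta chain of lymphotoxin, was at 1.91, 0, 4.58 and 0 FPKM, and Lta stayed below 1 FPKM throughout. Tnfsf12, the ligand TWEAK, was at 8.07, 3.31, 12.7 and 1.52 FPKM (-1.07, or -0.39 under equal sums, and -2.44), and shares its strand with the readthrough gene Tnfsfm13. Tnfsf10, the death ligand TRAIL, was at 5.07, 5.30, 2.21 and 0.549 FPKM, level between the gates in control mice (0.05) and lower in Glut2L after STZ (-1.05, a call that ended under equal sums).

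Tnfrsf1a, the widely expressed TNF receptor that carries a death domain (chr6:125349362-125362484), had the highest value of all members in each library, at 491, 163, 352 and 234 FPKM. Its gate differences were -1.58 in control mice, which became -0.76 under equal sums, and -0.59 in STZ mice, which turned to 0.54. In 3 of the 4 libraries the value lay above its own deposited interval, for instance 38.4 to 284 FPKM in the Glut2H control library, so its level is uncertain. Tnfrsf1b, the TNF receptor typical of leukocytes and endothelium, was at 28.3, 3.72, 31.9 and 2.15 FPKM (-2.64 and -3.39), high in both Glut2H libraries. The ratio of Tnfrsf1a to Tnfrsf1b was therefore 17.3 and 11.1 in the Glut2H control and STZ libraries and 43.9 and 109 in the Glut2L ones.

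Of the other TNF receptors, Tnfrsf12a, the receptor of TWEAK, was at 71.7, 39.2, 83.0 and 28.5 FPKM (-0.85 and -1.51). Ltbr, the lymphotoxin beta receptor next to Tnfrsf1a, was at 33.6, 17.4, 24.1 and 10.5 FPKM (-0.91 and -1.13). For both, the Glut2H libraries were higher, and the call in STZ mice ended under equal sums (-0.40 and -0.06). Tnfrsf9, a co-stimulatory receptor of T cells, was at 2.45, 6.35, 9.06 and 7.30 FPKM, lowest in the Glut2H control library, with all its intervals reaching 0. Its gate differences were 1.09, just under 2-fold (0.99) with the median of all rows set to 0, and -0.28. Tnfrsf21, a death domain receptor, was at 8.73, 6.86, 12.2 and 8.09 FPKM. Tnfrsf10b, the TRAIL receptor, was at 5.65, 3.98, 7.29 and 6.35 FPKM. Neither differed 2-fold between the gates.

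No decoy of the TNF family was called between the gates on the deposited scale. Tnfrsf11b, the soluble decoy osteoprotegerin, was at 12.2, 20.3, 10.7 and 21.6 FPKM (0.68 and 0.95), higher in both Glut2L libraries, with both values past 2-fold (1.47 and 2.01) under equal sums. Tnfrsf23, a decoy for TRAIL, was at 12.0, 17.1, 9.66 and 11.6 FPKM (0.48 and 0.24, or 1.26 and 1.28 under equal sums). Its neighbour Tnfrsf22, another TRAIL decoy on chromosome 7, has 2 rows in the table for 1 locus. One row was level at 29.7, 34.2, 34.2 and 34.5 FPKM, and the row with the GENCODE identifier was at 7.65, 6.41, 0.934 and 1.59 FPKM. How the fragments were divided between the rows is not known, so the fall in the latter is uncertain. Tnfrsf26, a related receptor in the same cluster, was at 2.55, 0.0736, 4.05 and 0.622 FPKM (-1.72 and -1.64).

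Il4i1 is an L-amino acid oxidase named for its induction by interleukin-4 and is neither a ligand nor a receptor. It was at 3.31, 12.0, 2.24 and 9.99 FPKM, higher in both Glut2L libraries (1.59 and 1.76). All 4 intervals reached 0, and Il4i1 shares its locus with Nup62 on the same strand, so the value is uncertain. Il34, a ligand of the CSF1 receptor, was at 2.77, 11.2, 1.09 and 0.571 FPKM. It stood out in the Glut2L control library alone, which gave gate differences of 1.70 and -0.41.

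**Figure D4:**
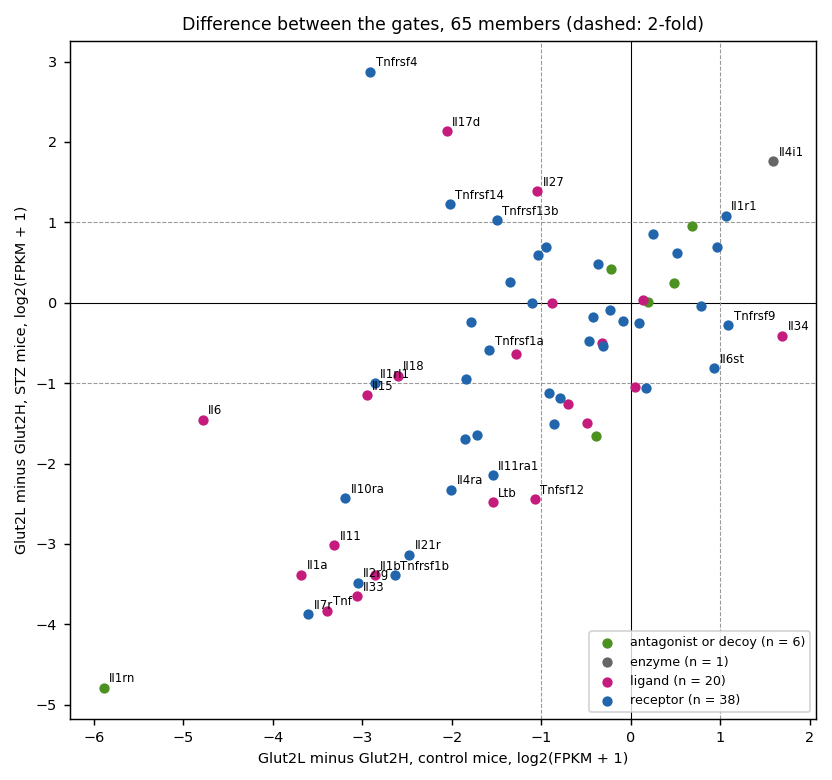
Difference between the gates, Glut2L minus Glut2H of log2(FPKM + 1), in control mice (x axis) and in STZ mice (y axis) for the 65 rows, coloured by role, with dashed lines at 2-fold. The 19 rows lower in both pairs fill the lower left, with Il1rn at -5.89 and -4.79, and Il1r1 and Il4i1 are in the upper right; Tnfrsf4, Il17d, Il27, Tnfrsf14 and Tnfrsf13b are in the upper left.

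A stricter rule, 2-fold with deposited intervals that do not overlap, kept 12 rows lower in Glut2L in control mice and 10 in STZ mice, against 3.05% and 2.88% of all rows, and 0 higher in both, against 0.186% of all rows in each. Those in control mice were Il1rn, Il1a, Il1b, Il33, Il10ra, Il11, Il6, Tnf, Il15, Il21r, Il2rg and Il7r. Those in STZ mice were Il1rn, Il1a, Il1b, Il10ra, Il11, Tnfrsf1b, Il21r, Il2rg, Il4ra and Il7r. In all, 8 passed in both pairs, where 360 of all rows did. Of the rows named here, Il1a, Il33, Il10ra, Tnf, Il15 and Il21r were under 1 FPKM in both Glut2L libraries. They passed the 1 FPKM minimum through Glut2H libraries alone and had to lean this way. Among them Il1a, Il10ra and Il21r are in the 8, so these are no independent repeat. The interval of Tnf, listed at 0 in the Glut2L STZ library, had no width, so Tnf in STZ mice could not pass. A value outside its own interval, as for Tnfrsf1a, could not pass either. These intervals come from 1 library each and hold no spread between mice.

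Between STZ and control mice, Il6, Il15, Il1rl1, Tnfrsf14 and Tnfrsf4 were at least 2-fold lower after STZ in Glut2H, Il6st and Tnfrsf9 were higher there, and Il34 and Tnfsf10 were lower in Glut2L. Within Glut2H 16 of 65 rows were called lower after STZ and 3 higher, against 12.1% and 8.44% of the 17733 rows tested, with a median of -0.10 against -0.03 for all rows. By role these were 7 ligands, 8 receptors and 1 decoy lower, and of the 16 rows 8 stayed under 5 FPKM. Within Glut2L 3 rows were called lower and 7 higher, against 9.73% and 8.94%, a share near the background for the higher calls. The 2 STZ comparisons share no library, and the first row of Tnfrsf22 was the one member lower in both (-2.16 and -1.51), against 1.57% of all rows. No member was higher in both, against 0.993%, and 42 rows stayed within 2-fold in both. Intervals did not overlap for Il6 alone in Glut2H (0.0902% of all rows lower, 0.0395% higher) and for Il17d alone in Glut2L (0.152% lower, 0.0395% higher).

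Of the 10 macrophage markers tested 0 were called after STZ in either gate, with summed levels of 1173 and 1252 FPKM in the Glut2H control and STZ libraries. The 4 B cell markers used here, Cd79a, Cd79b, Ms4a1 and Pax5, were each at least 2-fold lower after STZ in Glut2H, from 26.3 to 6.11 FPKM in sum, with Ms4a1 at 0 after STZ. In Glut2L they summed to 8.25 and 5.68 FPKM, with Ms4a1 at 0 in both libraries. The 7 acinar markers were all lower after STZ in Glut2L, from 2615 to 307 FPKM in sum. Of the 3 innate lymphoid markers tested, Gata3 (-1.96) and Areg (-1.91) were lower and Rora (1.45) higher after STZ in Glut2H, the library pair in which Il1rl1 and Tnfrsf4 were lower. Endothelial markers were lower for 2 of 8 in Glut2H and 3 of 8 in Glut2L, and the alpha cell markers Gcg (1.25) and Gc (1.17) were higher in Glut2L. Of the other lists, 1 of 3 T cell markers was lower in Glut2H, and 1 of 8 stromal markers was lower and 1 higher there. In Glut2L 2 of 6 dendritic cell markers were lower. Of the 2 neutrophil markers tested, Mmp9 (-2.70) was lower in Glut2H, and Csf3r stayed within 2-fold in both gates. The part of these cells in the STZ differences was not tested.

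The ligands lower after STZ in Glut2H at 5 FPKM or more were Il6 (-2.07), Il15 (-1.32) and Il18 (-1.70). For Il6 the intervals ran from 41.1 to 154 FPKM in the control and from 7.81 to 37.2 FPKM in the STZ library. Other ligands lower in Glut2L in both pairs stayed within 2-fold between STZ and control mice in Glut2H. This difference was -0.31 for Il1a, 0.45 for Il1b, 0.19 for Tnf, 0.33 for Il11, 0.56 for Il33 and 0.60 for Tnfsf12, and -0.17 for the antagonist Il1rn. Among receptors the same difference was -1.52 for Il1rl1, -1.20 for Il3ra, -2.17 for Tnfrsf14 and -3.16 for Tnfrsf4. Il6st and Tnfrsf9 were higher after STZ in Glut2H, by 1.71 and 1.55, and had nearly equal values in the Glut2L libraries (-0.04 and 0.18).

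In Glut2L the lower calls after STZ were Il34 (-2.96), Tnfsf10 (-2.02) and the row of Tnfrsf22 above. The higher ones included Il6 (1.26) and Il15ra (1.09, or 0.99 with sums made equal without the 20 highest rows). The T cell co-stimulatory receptor Tnfrsf4 (OX40), the lymphocyte regulator Tnfrsf14 (HVEM), Il6, Il17d and Il27 differed at least 2-fold in opposite directions in the gates, lower in Glut2H and higher in Glut2L. These are 5 of 65 rows, against 2.62% of all rows. The call of Il27 in Glut2H (-1.05) ended under equal sums (-0.90), and that of Tnfrsf14 in Glut2L (1.07) with sums made equal without the 20 highest rows (0.98). Tnfrsf14 (chr4:154921933-154928563) was at 24.6, 5.30, 4.67 and 12.3 FPKM, and Tnfrsf4 (chr4:156013843-156016612) at 7.91, 0.185, 0 and 6.34 FPKM. In each, the Glut2H control and Glut2L STZ libraries were the high pair. Il17d, an interleukin-17 relative, was at 3.67, 0.122, 0 and 3.38 FPKM with the same pair high.

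**Figure D5:**
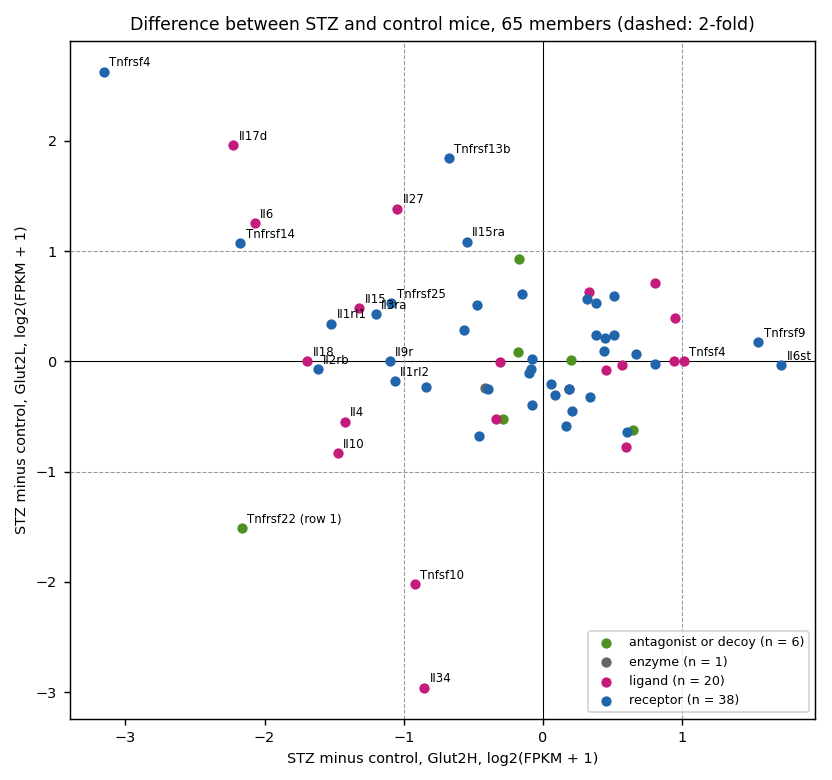
Difference between STZ and control mice, log2(FPKM + 1), in Glut2H (x axis) and Glut2L (y axis) for the 65 rows, coloured by role, with dashed lines at 2-fold. Most rows lie within 2-fold of 0 in both; Tnfrsf4, Il17d, Il6, Tnfrsf14 and Il27 are in the upper left, Tnfrsf22 row 1 in the lower left, and Il6st and Tnfrsf9 at the right.

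Rows under 5 FPKM comprised 9 ligands and 13 receptors. Beside Il17d, Il27, Ltb and Il10, the ligands were Il1f9, Il4, Il16, Tnfsf4 and Tnfsf13b, with highest values from 1.60 FPKM for Il16 to 3.58 FPKM for Tnfsf13b. The receptors were Il1rl2, Il20rb, Il17rd, Il17re, Il12rb2, Il6ra, Il2rb, Il9r, Tnfrsf11a, Tnfrsf13b, Tnfrsf18, Tnfrsf25 and Tnfrsf26, from 1.14 FPKM for Il9r to 4.53 FPKM for Il1rl2. Just inside the 1 FPKM minimum were Il9r at 1.14 and Il17rd at 1.26 FPKM in their highest library, and just outside it Tnfsf8 at 0.953 and Il12rb1 at 0.937. Of the 53 rows left out 19 were at 0 in every library, among them Il2, Il3, Il9, Il21, Il22, Il12a and Il17f. The T cell cytokines Il5, Il13 and Il17a, the receptor chain Il2ra and the ligand Tnfsf11 (RANKL) were above 0 in at least 1 library and under 1 FPKM in all 4.

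Genes that act with these ligands and receptors were counted from a list of 92 pathway genes, of which 87 were tested. Of these 33 were lower in Glut2L in control mice and 32 in STZ mice, with 5 and 7 higher, and medians of -0.53 and -0.38. Over all rows 16.9% and 15.9% were lower and 18.1% and 20.5% higher. Of 16 partner receptors and related cytokines 10 were lower in each pair, including Csf1r and Osmr. Csf1r, the receptor of CSF1, which is also in the macrophage list, was at 35.9, 0.875, 51.5 and 1.93 FPKM (-4.30 and -4.16). The oncostatin M receptor Osmr was at 24.98, 0.782, 22.5 and 0.278 FPKM (-3.87 and -4.20). Of 9 genes that process interleukin-1 and TNF 5 and 6 were lower. Of 16 adaptors and death signalling genes of TNF receptors 8 and 6 were lower. Of 13 NF-kB subunits and inhibitors 2 were lower in each pair, and of 12 adaptors and kinases of the interleukin-1 receptor 3 and 2, beside the 16.9% and 15.9% of all rows. Of 15 JAK, STAT and SOCS genes 2 and 5 were lower, and 2 were higher in each pair. Of 6 tested TNF superfamily genes that the symbol rule leaves out 3 and 1 were lower and 1 and 2 higher.

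Few pathway genes were higher in Glut2L. Socs3, the feedback inhibitor induced by gp130 signalling, was at 47.3, 208, 8.23 and 100.4 FPKM, with gate differences of 2.11 and 3.46, and STZ differences of -2.39 in Glut2H and -1.04 in Glut2L. The interleukin-1 family regulator Sigirr was at 0.685, 3.29, 3.06 and 5.40 FPKM (1.35 and 0.66). Fas, a death receptor of the TNF superfamily that the symbol rule leaves out, was at 4.70, 1.31, 0.137 and 8.63 FPKM. Its gate difference was -1.30 in control and 3.08 in STZ mice. Cd40, also left out by that rule, was at 25.0, 5.34, 18.1 and 1.91 FPKM, lower in Glut2L in both pairs (-2.03 and -2.72). Between STZ and control mice 16 of the 87 pathway genes were lower and 5 higher in Glut2H, and 11 lower and 5 higher in Glut2L. Over all rows 12.1% were lower and 8.44% higher in Glut2H, and 9.73% and 8.94% in Glut2L, so the Glut2L counts are near the background.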

How the data were processed

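Total RNA was depleted of ribosomal RNA and made into stranded libraries, 1 per sorted population, per the labels' protocols. The submitters' processing notes name TopHat2, SAMtools, Cuffdiff and GRCm38 (mm10). Versions, annotation release, strand setting and library normalization are not stated there. As deposited, values are FPKM with interval bounds and a status per row, per the file headers. Other deposited columns, the bounds, served the interval rule alone. The deposited tables of the single samples hold the same FPKM (0 of 156680 values differed).

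Rows with at least 1 FPKM in 1 of the 4 libraries were compared as differences of log2(FPKM + 1), with status OK in both libraries, over the whole table. A row was called at 2-fold or more. No tests were made, since groups are single libraries, and depth is unknown. Every member with at least 5 FPKM was named, with those under 5 FPKM that were called the same way in both gate or both STZ comparisons or oppositely after STZ; the rest are given by name and range. Of pathway and marker lists, counts, sums or the values of their genes are given, with the most extreme genes. A marker gene is not reported here and was left out of its list. The members, roles and lists were chosen with earlier results of these data known. Coordinates are from GENCODE M21 by Ensembl identifier (64 of 65 rows) and promoters from RefSeq. Of the members, 5 overlap a protein-coding gene on the same strand and 8 on the opposite strand. Calls were checked on simulated data. Python 3.11.15, pandas 2.3.3, numpy 2.4.6 and matplotlib 3.10.9 were used. The 10 alternative settings changed the pseudocount, the minimum, the scaling or the interval rule, or took the tables of the single samples.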

Additional observations from a re-analysis of the deposited data

Results flagged for a closer look

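In 5 genes STZ and control mice differed at least 2-fold in opposite directions in the gates, lower after STZ in Glut2H and higher in Glut2L. The difference between the gates was not tested, since each value rests on 1 library per group. The STZ effect in Glut2L minus that in Glut2H, on the log2 scale, was 5.78 for Tnfrsf4, 4.19 for Il17d, 3.33 for Il6, 3.25 for Tnfrsf14 and 2.43 for Il27. Tnfrsf4, Il17d and Il27 were at 0 in 1 or more libraries. For Il6 the Glut2H library was above the Glut2L library in both control and STZ mice. In the other 4 the order of the gates turned, with Glut2L above Glut2H after STZ. Among all rows 2.62% differed in opposite directions by this rule.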

How the results depend on the processing

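No paired analysis was possible because the labels carry no replicate numbers and each group has 1 library, so no library could be left out either. Under the 10 settings no result changed its direction from one call to the opposite call, and 113 count and median values moved by less than 1.5 times while 39 moved by more. Part of the 113 could not move. The tables of the single samples hold the same FPKM, and leaving out the minimum cannot change a count of calls. A pseudocount of 0.1 gave ligand medians of -3.56 and -2.34 in the gate comparisons of control and STZ mice, 7 rows higher after STZ in Glut2H, and 13 higher and 10 lower in Glut2L. A pseudocount of 5 gave, in the gate comparisons, 2 higher and 20 lower with a ligand median of -0.59 in control mice and 2 higher and 17 lower with a ligand median of -0.44 in STZ mice; after STZ it gave 1 higher and 5 lower in Glut2H, and 1 higher and 1 lower in Glut2L. A minimum of 5 FPKM, which leaves 43 rows, gave ligand medians of -2.95 and -2.44, 4 rows higher in Glut2L in STZ mice, 8 lower after STZ in Glut2H and 4 higher in Glut2L. Without a minimum the ligand medians were -0.52 and -0.18 and the receptor median in control mice -0.39. With a mean of at least 1 FPKM the ligand median in control mice was -2.06. With the median of all rows set to 0, 2 rows were higher in Glut2L in control mice. Scaling to an equal sum gave 10 rows higher and a receptor median of -0.31 in control mice, and 17 higher, 16 lower, a ligand median of -0.55 and a receptor median of 0.33, with the sign turned, in STZ mice. With intervals apart the counts were 0 higher and 12 lower, 0 and 10, 0 and 1, and 1 and 0 in the gate comparisons of control and STZ mice and the STZ comparisons of Glut2H and Glut2L. The deposited interval had a median half-width of 91.9%, 104%, 92.2% and 96.5% of the FPKM of the members, and reached 0 for 18, 34, 21 and 37 of 65 rows, which limits what the low values can show.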
